A study of Mus musculus with 6 samples.

Results

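The 6 genes described here are the adult alpha-globin genes Hba-a1 and Hba-a2, the adult beta-globin genes Hbb-bs and Hbb-bt, Alas2 and Slc4a1. They were taken by symbol from the authors' deposited table and joined by gene identifier to the counts of each library, so they are 6 of 39179 genes with an identifier and 6 of 14850 genes tested. Their counts were measured in 6 tumour grafts grown in FVB mice from MMTV-Neu cells, a mammary tumour model that expresses the oncogene Neu (ErbB2) from a viral promoter active in mammary epithelium. In 3 libraries the grafted cells were wild type for Axl (WT, AXL+/+), and in 3 they lacked it (AXL KO, AXL-/-). Axl encodes a receptor tyrosine kinase. The labels give neither the Axl genotype or age of the recipient mice, nor the age or size of the grafts, nor whether grafts were rinsed or perfused, nor whether replicate grafts were taken from different mice or cell isolates. The p-values therefore measure only the spread among these 6 samples, part of which may be technical.

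Haemoglobin is the oxygen carrier of red cells and is built from alpha and beta chains, each holding a haem group. ALAS2 is the erythroid enzyme that catalyses the first step of haem synthesis, and SLC4A1 (band 3) is the anion exchanger of the red cell membrane and an anchor of its skeleton. Red cells are made in the bone marrow and spleen, and reticulocytes, the youngest circulating cells, still carry globin mRNA. In a bulk graft these transcripts are therefore used as a readout of the blood it contains. Fewer red cells and less RNA per red cell cannot be told apart in such libraries.

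The libraries held 26541009 to 32491807 counts in genes. The 6 genes together took 0.0649% to 0.105% of these counts in the WT libraries and 0.0149% to 0.0235% in the AXL KO libraries, so the groups did not overlap. Exact binomial 95% intervals cover counting error only. That of the lowest WT library began at 0.0640%, and that of the highest AXL KO library ended at 0.0240%. Axl itself was counted at 60.4 ± 8.94 CPM in the WT libraries and 60.1 ± 13.05 CPM in the AXL KO libraries (SD, n = 3 each; edgeR quasi-likelihood test, adjusted p = 0.978). The labels do not say which part of the gene was deleted, so this count did not check the genotype, and directions below are between libraries as labelled. CPM are counts brought to a common library total, with TMM factors.

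The globin copies lie in pairs that are almost the same in sequence. Hba-a1 (ENSMUSG00000069919, GRCm38 chromosome 11, 32283511 to 32284465, plus strand) and Hba-a2 (ENSMUSG00000069917, chromosome 11, 32296489 to 32297298, plus strand) had coding sequences of 426 bases without the stop codon that differed at 1 base. Hbb-bs (ENSMUSG00000052305, chromosome 7, 103826534 to 103828096, minus strand) and Hbb-bt (ENSMUSG00000073940, chromosome 7, 103812524 to 103813996, minus strand) had coding sequences of 441 bases that also differed at 1 base. Axl lies on chromosome 7 too, 78.0 Mb from the beta-globin pair. The coding stretch around the differing base of each pair is shown because it is what separates the copies within the coding part. The capital letter marks the differing base, and the sequences are from the GENCODE M21 transcripts of GRCm38, 5′ to 3′, coding bases 351 to 411 of the alpha genes and 381 to 441 of the beta genes.
Hba-a1: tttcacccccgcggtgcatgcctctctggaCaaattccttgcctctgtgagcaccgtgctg
Hba-a2: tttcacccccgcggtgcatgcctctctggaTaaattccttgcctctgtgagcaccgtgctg
Hbb-bs: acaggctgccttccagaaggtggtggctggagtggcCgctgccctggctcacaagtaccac
Hbb-bt: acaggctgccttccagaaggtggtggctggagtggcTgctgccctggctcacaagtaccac
Counted from the A of the start codon, the difference from Hba-a1 to Hba-a2 is C381T and that from Hbb-bs to Hbb-bt is C417T. Both fall on the third base of a codon, codons 127 and 139.

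A read can be assigned to 1 copy only where it covers a difference between the copies. Of all windows of 100 bases in the longest coding transcript, 43.5% of those of Hba-a1, 25.5% of those of Hba-a2, 37.4% of those of Hbb-bs and 45.2% of those of Hbb-bt occurred in no other annotated gene. With windows of 50 bases the shares were 32.5%, 13.1%, 34.2% and 41.7%. Only annotated transcripts were searched, and that of Hba-a1 (699 bases, against 554 for Hba-a2) starts further upstream. Bases there recur before Hba-a2, outside its annotation, so the shares of Hba-a1 overstate what reads could assign. Every window of Slc4a1 (chromosome 11, 102348824 to 102366203, minus strand) occurred in that gene alone. Of Alas2 (chromosome X, 150547375 to 150570638, plus strand) 89.0% of the 100-base windows did, since the annotation places Alas2 inside Apex2, a DNA repair nuclease gene on the opposite strand. Neither the read length nor the use of strand is stated in these sources, and the reference sequence is of C57BL/6J while the grafts grew in FVB. Alignments that were not unique were left out of the gene counts. They made up 27.3% to 29.0% of all counted lines in the WT libraries and 25.7% to 26.9% in the AXL KO libraries, and their part in the globin counts was not tested.

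All 6 genes fell in the libraries labelled AXL KO, with Hbb-bs the most abundant and Slc4a1 the rarest. At an adjusted p under 0.05 (edgeR quasi-likelihood test over all genes), 6 of 6 were lower, against 18.3% of all tested genes. All 6 were lower by at least 2-fold, against 4.82% of tested genes, and in all 6 the groups did not overlap, against 25.2%. Their median log2 fold change was -2.20, and that of all tested genes was 0.000318. Slc4a1 passed the filter on low counts through its WT libraries alone, so its call is not support. The counts of 6 and the median above include it. The 4 globin genes lie in 2 pairs that share sequence and are not independent of each other.

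The plot of CPM by library shows the same separation in each gene, on very different scales.

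**Figure D1:**
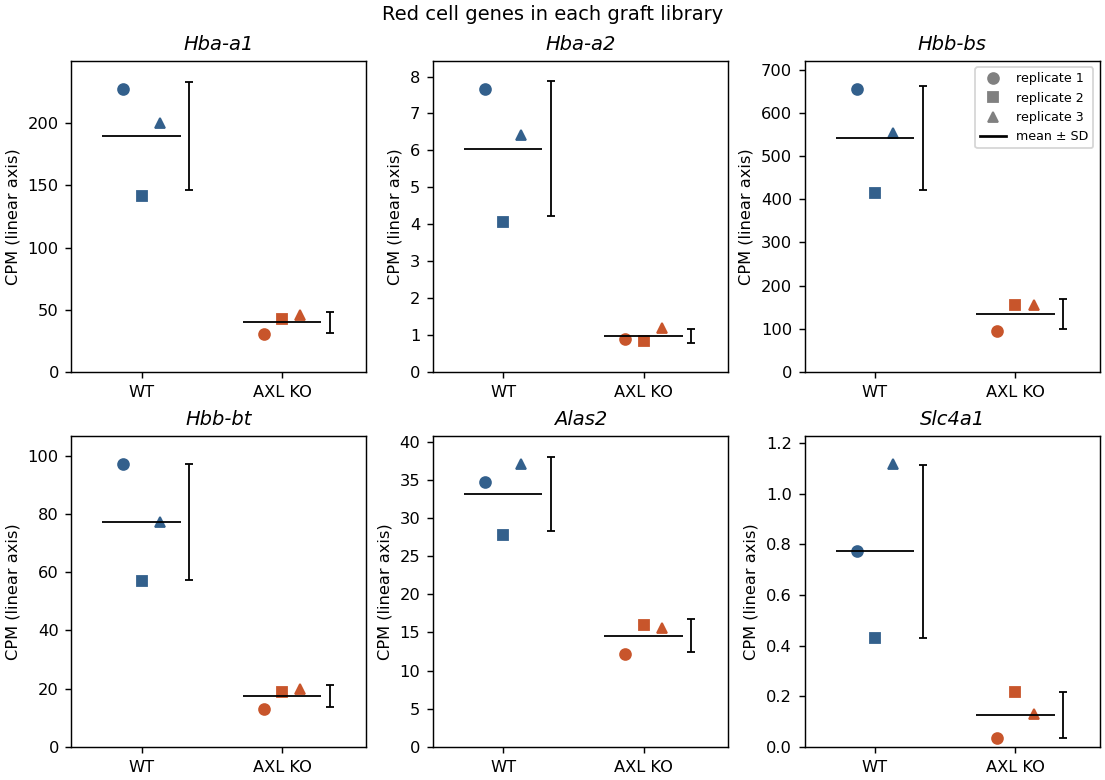
CPM of each of the 6 genes (linear y axes starting at 0) in the 3 WT and 3 AXL KO libraries, 1 marker per library with its replicate number by shape, and the group mean with SD. Every AXL KO library lies below every WT library in each panel, and WT replicate 2 is the lowest WT library in all 6.

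The alpha-globin genes encode the alpha chain of adult haemoglobin. Hba-a1 had 6176, 4263 and 5746 counts in WT replicates 1 to 3 and 857, 1388 and 1401 in AXL KO replicates 1 to 3. The lowest WT library thus held 3.08 times the CPM of the highest AXL KO library. Its mean was 190 ± 43.8 CPM in the WT libraries and 39.7 ± 8.29 CPM in the AXL KO libraries (SD, n = 3 each here and below), which is -2.25 ± 0.20 (SE) in log2 fold change (edgeR adjusted p = 8.27e-05). Hba-a2, its downstream copy, had 208, 122 and 184 counts in the WT libraries and 25, 27 and 36 in the AXL KO libraries. It fell from 6.04 ± 1.83 to 0.967 ± 0.188 CPM, which is -2.64 ± 0.28 (SE) in log2 fold change (edgeR adjusted p = 0.000209). The groups did not overlap in either copy, and both copies were highest in WT replicate 1.

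The beta-globin genes encode the partner chain. Hbb-bs had 17790, 12500 and 15872 counts in the WT libraries and 2686, 4996 and 4688 in the AXL KO libraries, so AXL KO replicate 1 lay well under the other 2 of its group. It fell from 541 ± 120.1 to 134 ± 34.1 CPM, which is -2.01 ± 0.21 (SE) in log2 fold change (edgeR adjusted p = 0.000221). Hbb-bt had 2635, 1719 and 2211 counts in the WT libraries and 368, 616 and 610 in the AXL KO libraries. It fell from 77.0 ± 19.9 to 17.4 ± 3.79 CPM, which is -2.15 ± 0.21 (SE) in log2 fold change (edgeR adjusted p = 0.00015). In both beta genes WT replicate 1 was the highest library and AXL KO replicate 1 the lowest.

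Adding the copies of a pair gives values that do not depend on how reads were divided between them. The summed alpha copies fell from 196 ± 45.6 to 40.7 ± 8.39 CPM, or 4.81-fold, with a log2 fold change of -2.26 and a 95% interval from -2.72 to -1.81 (edgeR adjusted p = 8.01e-05). The summed beta copies fell from 618 ± 140.0 to 152 ± 37.8 CPM, or 4.07-fold, with a log2 fold change of -2.03 and a 95% interval from -2.51 to -1.54 (edgeR adjusted p = 0.00021). Reads that align to both copies of a pair are missing from these sums as well.

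Alas2 starts the synthesis of the haem that globin needs, and it fell less than the globin genes. It had 942, 835 and 1062 counts in the WT libraries and 343, 519 and 475 in the AXL KO libraries, with no overlap of the groups. Its mean fell 2.27-fold, from 33.1 ± 4.83 to 14.6 ± 2.13 CPM, with a log2 fold change of -1.18, a 95% interval from -1.50 to -0.86 and an edgeR adjusted p of 0.000418. That interval lies wholly above those of Hba-a1, Hba-a2, Hbb-bs and Hbb-bt, whose upper ends ran from -2.01 to -1.52. Apex2, which encloses Alas2 on the other strand, did not pass the test, with 7.53 ± 0.785 CPM in the WT libraries and 8.45 ± 0.486 CPM in the AXL KO libraries (edgeR adjusted p = 0.343). Without a statement on strand, reads of Apex2 and Alas2 cannot be told apart, and their part in the Alas2 count was not tested.

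Slc4a1, the band 3 gene, was close to the limit of detection. It had 21, 13 and 32 counts in the WT libraries and 1, 7 and 4 in the AXL KO libraries, 66 against 12 in all. The mean fell from 0.773 ± 0.342 to 0.128 ± 0.0905 CPM, with a log2 fold change of -2.52 and a 95% interval from -3.75 to -1.28 (edgeR adjusted p = 0.00721). The groups did not overlap, but the interval is the widest of the 6 and covers the values of all 4 globin genes.

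**Figure D2:**
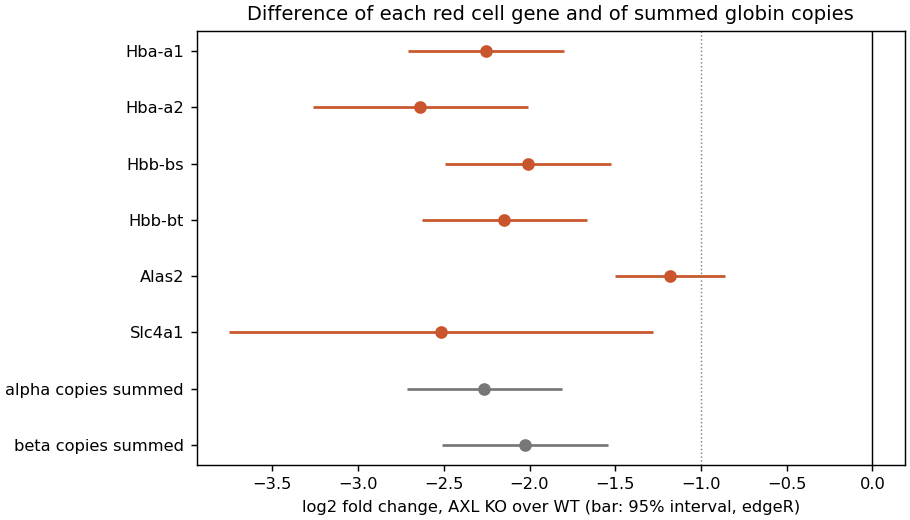
Log2 fold change of each gene and of the summed copies (x axis, AXL KO over WT), with 95% intervals from the edgeR fit. The globin intervals lie between -3.27 and -1.52, Alas2 stands apart from them at -1.18, and Slc4a1 has the widest interval. The dotted line marks a 2-fold fall.

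The size of the change placed the genes near the lower end of the table. From the lowest log2 fold change upwards, Hba-a2 was at rank 65, Slc4a1 at 75, Hba-a1 at 108, Hbb-bt at 131, Hbb-bs at 158 and Alas2 at 561 of 14850. The authors' deposited table gave the same direction for 6 of 6 and adjusted p-values under 0.05, against 16.7% of the genes it tested that were lower at that threshold. Turned to AXL KO over WT, its log2 fold changes were -2.22 for Hba-a1, -2.53 for Hba-a2, -1.98 for Hbb-bs, -2.11 for Hbb-bt, -1.17 for Alas2 and -2.06 for Slc4a1.

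Per kilobase of annotated exon, the levels followed the order Hbb-bs, Hba-a1, Hbb-bt, Alas2, Hba-a2 and Slc4a1 in the WT libraries. Hbb-bs stood at 705 CPM per kilobase, Hba-a1 at 234, Hbb-bt at 110, Alas2 at 13.8, Hba-a2 at 9.06 and Slc4a1 at 0.158. In the AXL KO libraries the values were 175, 48.9, 24.7, 6.07, 1.45 and 0.0261, in the same order. The 4 globin levels are lower limits, since the windows shared by the copies lie within these lengths but give no counts. Hba-a1 had 2.25 times as many unique windows of 100 bases as Hba-a2 and, in the WT libraries, 32.0 ± 2.70 times its CPM. Hbb-bs had 0.725 times as many as Hbb-bt and 7.07 ± 0.277 times its CPM. In both pairs the CPM of the copies differed by more than their numbers of unique windows. The 2.25 includes windows at the upstream end of Hba-a1 that recur before Hba-a2, so it overstates what reads could assign.

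Ratios taken within a library do not depend on its scaling, and they show how far the members moved in step. The 7 ratios were compared by a two-sided exact permutation test, which cannot go below p = 0.1 with 3 libraries against 3, and no Benjamini-Hochberg value over the 7 was under 0.14. The ratio of Alas2 to globin differed between the groups. Alas2 stood at 3.51, 4.49 and 4.42 CPM per 100 globin CPM in the WT libraries and at 8.71, 7.39 and 7.05 in the AXL KO libraries. The groups did not overlap, and the ratio was 1.87-fold higher in the AXL KO libraries (exact permutation p = 0.1, Benjamini-Hochberg 0.14).

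The CPM ratio of alpha to beta globin differed less. Reads shared by the copies of a pair are left out of it, so it is not the proportion of their mRNAs. The ratio of alpha to beta CPM was 0.313, 0.308 and 0.328 in the WT libraries and 0.289, 0.252 and 0.271 in the AXL KO libraries. It was 1.17-fold lower in the AXL KO libraries without overlap (exact permutation p = 0.1). Hbb-bs over Hbb-bt was 7.07 ± 0.277 against 7.70 ± 0.406, also without overlap and with the same exact permutation p of 0.1. Hba-a1 over Hba-a2 ranged from 29.7 to 34.9 in the WT libraries and from 34.3 to 51.4 in the AXL KO libraries, with overlap (exact permutation p = 0.2). Slc4a1 per 1000 globin CPM overlapped widely, with 0.783, 0.699 and 1.33 in the WT libraries and 0.254, 0.996 and 0.594 in the AXL KO libraries (exact permutation p = 0.4).

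Globin was also lower relative to the vessels. The endothelial list held 16 markers, of which 14 fell (18.3% of all tested genes did), with a median of -0.65 on the log2 scale. Those with the smallest p were the transcription factor gene Sox18 (2.12-fold lower), Plvap, which encodes a protein of vessel fenestrae (1.85-fold lower), and the junction genes Esam (1.74-fold lower) and Pecam1 (1.57-fold lower), with edgeR adjusted p from 0.000416 to 0.00206. Their summed level was 442 ± 29.6 CPM in the WT libraries and 278 ± 36.6 CPM in the AXL KO libraries. The summed globin level was 814 ± 185 CPM in the WT libraries and 193 ± 46.1 CPM in the AXL KO libraries. Globin over endothelial markers was 2.21, 1.32 and 2.04 in the WT libraries and 0.569, 0.685 and 0.817 in the AXL KO libraries. The groups did not overlap, and the ratio was 2.65-fold lower in the AXL KO libraries (exact permutation p = 0.1). For Alas2 and Slc4a1 together, the ratio to endothelial markers was 1.44-fold lower, at 7.75 ± 1.65 against 5.30 ± 0.444 per 100 endothelial CPM (exact permutation p = 0.1). Nearly all of that sum was Alas2, with means of 33.1 CPM in the WT libraries and 14.6 in the AXL KO libraries. Slc4a1 stood at 0.773 and 0.128 CPM. The part of the vessel markers in the globin result was not tested. Without AXL KO replicate 1, 9 endothelial markers fell.

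**Figure D3:**
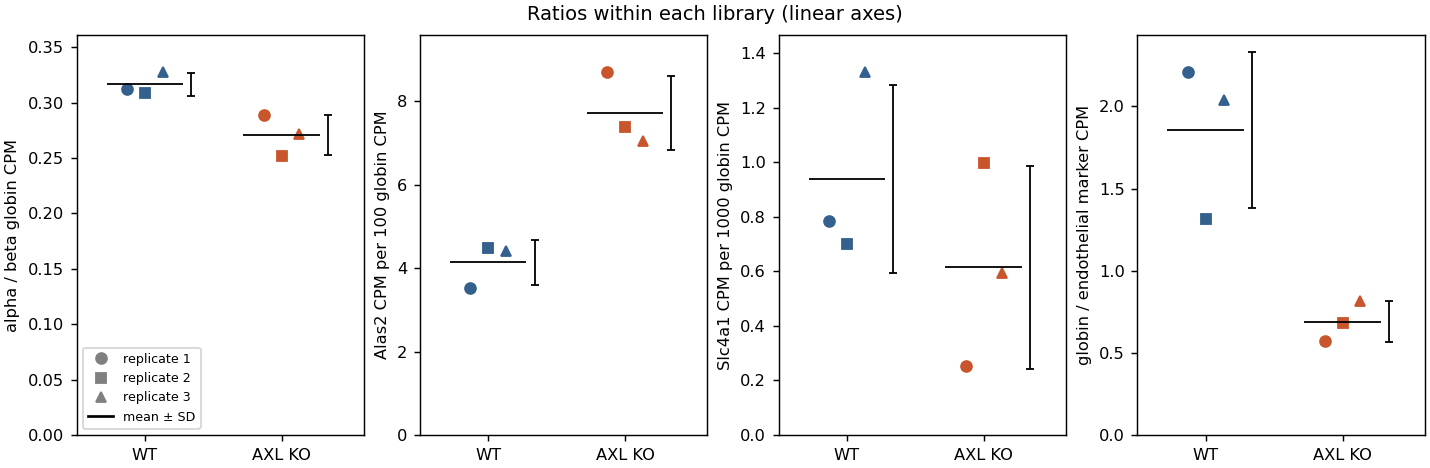
Ratios within each library (linear y axes starting at 0) for alpha to beta globin, Alas2 per 100 globin CPM, Slc4a1 per 1000 globin CPM, and globin to the summed endothelial markers, with 1 marker per library and the group mean with SD. Alas2 to globin is higher in all 3 AXL KO libraries, globin to endothelium is lower in all 3, and Slc4a1 to globin overlaps.

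Within a group, the members shared their lowest library more often than their highest. WT replicate 2 was the lowest WT library for 6 of 6 genes, and AXL KO replicate 1 the lowest AXL KO library for 5 of 6, Hba-a2 being lowest in AXL KO replicate 2. WT replicate 1 was highest for the 4 globin genes and WT replicate 3 for Alas2 and Slc4a1. Among the AXL KO libraries, replicate 2 was highest for 3 genes and replicate 3 for the other 3. The coefficient of variation of CPM was 22.2% to 30.3% for the globin genes in the WT libraries and 19.4% to 25.3% in the AXL KO libraries. For Alas2 it was 14.6% in each group. The summed endothelial markers, by contrast, were highest in WT replicate 2 among the WT libraries, at 469 CPM, but lowest in AXL KO replicate 1 among the AXL KO libraries, at 245 CPM, as 5 of the 6 members were.

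Genes with a similar profile over the 6 libraries were sought among 13310 tested genes outside the set whose log2 CPM averaged at least 0. Likeness was Pearson's r with the mean of the 6 members' standardised log2 CPM, given as a description, since the 2 groups alone produce high values. In all 466 genes reached an r of 0.95. The 10 closest were Narfl, Fkbp1a, Lrpprc, Depdc7, Tmem37, Smyd2, Sdc1, Fahd1, Nup54 and Srsf7, with r from 0.993 to 0.998 and, after removal of the group means, from 0.926 to 0.995. The second range is raised by the choice of genes, since the r used to choose them already includes the differences within groups. The changes of these 10 genes were smaller than those of globin. Tmem37, a calcium channel gamma-like subunit, had a log2 fold change of -1.18, the syndecan gene Sdc1 -0.99, and Fkbp1a, which encodes the FK506-binding protein FKBP12, -0.49.

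The sequence before the start sites of the members is given as a description, and its part in their fall was not tested. RefSeq promoter entries of GRCm38.p6 were matched for 5 of the 6 members, all but Slc4a1, and the 250 bases before each start were searched. Erythroid genes are known to be controlled by GATA1, which binds GATA motifs, and by KLF1, which binds CACC boxes. The alpha genes were identical over 247 of the 250 bases, while the longest stretch that the beta genes had in common was 14 bases. The sequence of Hba-a2 is printed to the edge of the annotated gene, chr11:32296242-32296488, plus strand, with 4 motifs in capitals, first the GATA motif TGATAA, then the box CCAAT, then the short CACC box CCACCC and last the TATA box CATATAA.
Hba-a2: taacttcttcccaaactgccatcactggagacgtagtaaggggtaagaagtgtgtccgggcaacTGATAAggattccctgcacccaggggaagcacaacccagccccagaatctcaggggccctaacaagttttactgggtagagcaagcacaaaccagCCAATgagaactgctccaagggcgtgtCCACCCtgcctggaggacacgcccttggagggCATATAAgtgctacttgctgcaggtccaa
TGATAA, on either strand, was in both alpha genes and in 7.94% of all 32851 promoter entries. CCAAT was in all 4 globin genes and in 33.8% of entries, and CCACCC in Hba-a1, Hba-a2, Hbb-bt and Alas2 and in 28.1% of entries.

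Near the start, 3 of the globin genes carried the same form of TATA box and the fourth another. CATATAA, on the coding strand, was in Hba-a1, Hba-a2 and Hbb-bs and in 1.15% of entries, and TATAAA in Hbb-bt and in 7.59% of entries. The 30 bases from -42 to -13 relative to the RefSeq start are shown to compare these boxes, which are in capitals, at chr11:32283630-32283659 and chr11:32296450-32296479 (plus strand) and chr7:103827941-103827970 and chr7:103813936-103813965 (minus strand).
Hba-a1: cgcccttggagggCATATAAgtgctacttg
Hba-a2: ccttggagggCATATAAgtgctacttgctg
Hbb-bs: ccagggcagagCATATAAggtgaggtagga
Hbb-bt: gccagcattgggtaTATAAAgctgagcagg
AGATAA, on either strand, was in Hbb-bs and Alas2 and in 9.99% of entries. These 30-base stretches hold it, with its letters in capitals, at chr7:103828121-103828150 (minus strand) and chrX:150547319-150547348 (plus strand), where Alas2 has it on the opposite strand.
Hbb-bs: tgttctctgcacAGATAAggacaaacatta
Alas2: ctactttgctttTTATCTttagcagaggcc
The longer CACC box CCACACCC was in Hbb-bs alone of the 5 and in 3.20% of entries. A match is a description of the letters and shows no binding, matches may overlap, as those of CCACCC did in Alas2, and the form CATAAA, also searched, was in none of the 5 and in 5.98% of entries.

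The other genes of the red cell programme did not fall as a body. In 7 further lists, covering other globins, haem synthesis, the membrane and its skeleton, enzymes, reticulocyte maturation, transcription factors and iron uptake, 74 genes were matched and 53 tested. Of these 13 were lower (18.3% of all tested genes were) and 11 higher (19.1% of all tested genes were). Another 17 of the 74 had under 10 counts over all 6 libraries. The plot of log2 fold changes by list shows the 6 members to the left of nearly all of them.

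**Figure D4:**
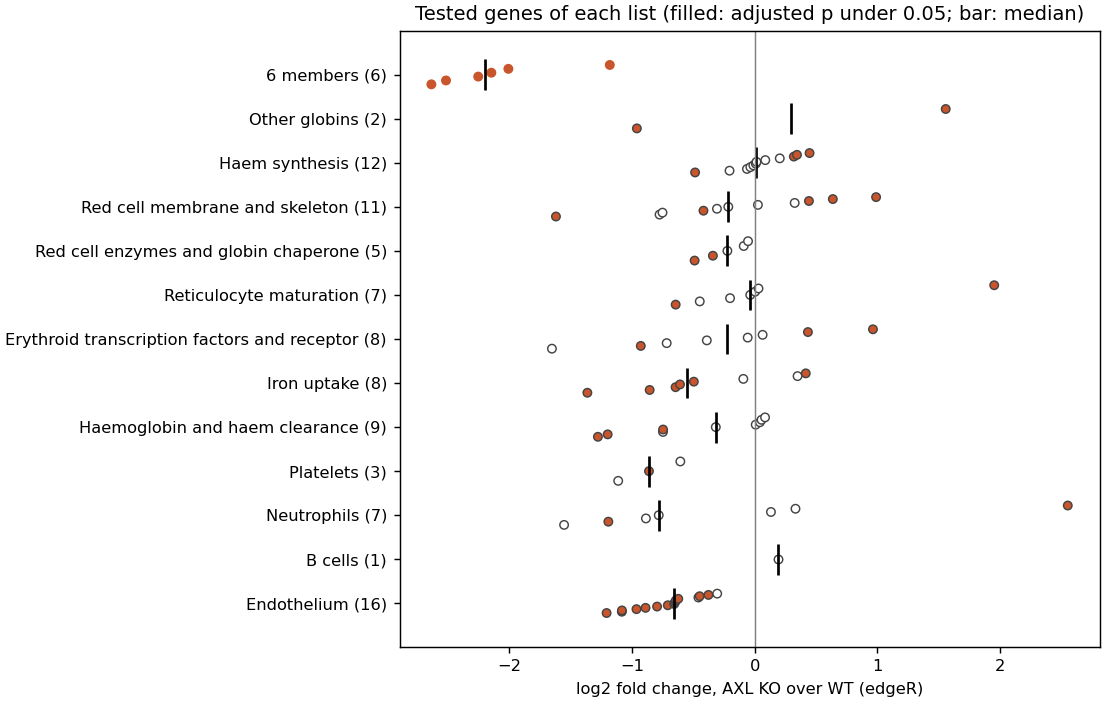
Log2 fold change (x axis, AXL KO over WT, edgeR) of the tested genes of each list, with their number in brackets, filled where the adjusted p was under 0.05, and the list's median as a bar. The globin members and Slc4a1 lie between -2.64 and -2.01, below every other gene shown, and the haem synthesis genes centre on 0.01.

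Embryonic globin genes were not seen at this depth. Hba-x, Hbb-y and Hbb-bh2 had 0 counts in every library and Hbb-bh1 had 2 in all. Of the globins of other tissues, the neuroglobin gene Ngb had 2 counts in all, and the other two went opposite ways. Mb, the oxygen-binding myoglobin of muscle, rose from 5.80 ± 0.932 to 17.1 ± 1.76 CPM (edgeR adjusted p = 0.000113). Cygb, cytoglobin, fell from 16.1 ± 0.408 to 8.25 ± 1.76 CPM (edgeR adjusted p = 0.00155).

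Of 12 haem synthesis genes other than Alas2, 1 fell (18.3% of all tested genes did), 3 rose (19.1% of all tested genes did) and 8 did not pass the test, and the list's median was 0.01 on the log2 scale. Alas1, the form of the first enzyme that other tissues use, stood at 30.2 ± 1.05 CPM in the WT libraries and 30.5 ± 1.24 CPM in the AXL KO libraries, and Fech, which inserts iron to complete haem, at 33.3 ± 3.13 and 33.5 ± 0.887 CPM. Alad, the second enzyme, fell 1.401-fold (edgeR adjusted p = 0.00745). The genes that rose were Abcb10, a transporter of the inner mitochondrial membrane, 1.36-fold, Urod, an enzyme of the later steps, 1.25-fold, and Slc25a38, the mitochondrial glycine carrier, 1.27-fold (edgeR adjusted p = 0.00303, 0.00859 and 0.0440). Alas2 thus fell while the other first-step gene, Alas1, had a log2 fold change of 0.01 ± 0.08 (SE).

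Of 11 tested membrane and skeleton genes 2 fell and 3 rose (18.3% and 19.1% of all tested genes), and the list's median was -0.22 on the log2 scale. Aqp1, the water channel of red cells and also of vessel endothelium, fell 3.07-fold from 58.2 ± 7.53 to 18.9 ± 4.62 CPM (edgeR adjusted p = 0.00018), and Cd59a, a complement inhibitor gene, fell 1.34-fold (edgeR adjusted p = 0.0078). Epb4.1, the skeleton protein 4.1 gene, rose 1.36-fold, and Ank1, the red cell ankyrin gene, rose from 0.449 ± 0.136 to 0.902 ± 0.193 CPM (edgeR adjusted p = 0.0168 and 0.0343). Ank1 was close to the filter on low counts, with 9, 18 and 12 counts in WT replicates 1 to 3. Its WT libraries alone would not have passed it, so its call is not support. The 3 that rose and the count of higher genes over the further lists include it. Several genes of this list were near 0. Epb4.2 had 6 counts over all 6 libraries, and the blood group genes Rhag, Rhd and Kel had 3, 3 and 2. Sptb, the beta-spectrin gene, was abundant at 143 ± 25.3 CPM in the WT libraries and did not pass the test (edgeR adjusted p = 0.893).

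The enzyme and reticulocyte maturation lists held 12 tested genes, of which 4 were called, against 37.4% of all tested genes in either direction. Of 5 tested enzyme genes 2 fell, namely Bpgm, which makes the oxygen-affinity regulator bisphosphoglycerate, 1.405-fold, and the peroxiredoxin Prdx2 1.27-fold (edgeR adjusted p = 0.00764 and 0.0144). The red cell carbonic anhydrase Car1 had 5 counts in all. Of 7 tested maturation genes Bnip3l, needed for removal of mitochondria, fell 1.56-fold, and Ube2l6, a ubiquitin-like conjugating enzyme gene that interferon also induces, rose 3.87-fold (edgeR adjusted p = 0.00221 and 3.38e-06).

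The transcription factors that define erythroid precursors were close to 0. Gata1, the master regulator of the lineage, had 2 counts over all 6 libraries, Gfi1b 3 and Klf1 16. Of 8 tested genes of this list 1 fell and 2 rose (18.3% and 19.1% of all tested genes), and the list's median was -0.22 on the log2 scale. Epor, the erythropoietin receptor, fell 1.90-fold from 1.11 ± 0.258 to 0.582 ± 0.163 CPM (edgeR adjusted p = 0.0392). Lmo2, which endothelium also expresses, rose 1.95-fold, and Bcl11a, a repressor of fetal globin genes, 1.35-fold (edgeR adjusted p = 0.000603 and 0.0360).

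Of 8 tested iron genes 5 fell and 1 rose (18.3% and 19.1% of all tested genes), and the list's median was -0.55 on the log2 scale. The ferritin heavy chain gene Fth1, which stores iron, fell 2.57-fold from 903 ± 35.3 to 351 ± 84.4 CPM, and the light chain gene Ftl1 1.56-fold (edgeR adjusted p = 0.000259 and 0.0036). Both have processed pseudogenes that can share reads. Slc25a37, the mitochondrial iron importer of erythroid cells, fell 1.53-fold (edgeR adjusted p = 0.00392). The gene that rose was Ireb2, which encodes an iron regulatory protein, at 1.33-fold (edgeR adjusted p = 0.00237). Tfrc, the transferrin receptor, stood at 104 ± 4.05 and 132 ± 29.3 CPM and did not pass the test (edgeR adjusted p = 0.087).

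Of 9 tested genes that handle haemoglobin and haem released from red cells, 3 fell (18.3% of all tested genes did) and 6 did not pass the test, and the list's median was -0.32 on the log2 scale. Hmox1, which breaks haem down, fell 2.30-fold from 387 ± 48.5 to 169 ± 64.3 CPM (edgeR adjusted p = 0.00516). Slc40a1, the iron exporter ferroportin, fell 2.43-fold, and the haem transporter Slc48a1 1.68-fold (edgeR adjusted p = 0.0166 and 0.000304). Cd163, the haemoglobin receptor of macrophages, stood at 7.50 ± 2.03 and 6.01 ± 1.12 CPM and did not pass the test (edgeR adjusted p = 0.282).

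Markers of platelets, neutrophils and B cells were examined as well, and those of other blood cells were not. The 12 platelet markers summed to 8.57 to 14.4 CPM in the WT libraries and 4.63 to 8.86 CPM in the AXL KO libraries, with overlap. Of the 3 that could be tested, 1 fell (18.3% of all tested genes did). This was Itga2b, the platelet fibrinogen receptor subunit, at 1.82-fold lower (edgeR adjusted p = 0.00879). Pf4 and Ppbp had log2 fold changes of -0.61 and -1.11 and did not pass the test (edgeR adjusted p = 0.191 and 0.0684). If WT replicate 2 or AXL KO replicate 2 was left out, 2 platelet markers fell. The 11 neutrophil markers summed to 8.24 to 16.1 CPM in the WT libraries and 19.4 to 19.9 CPM in the AXL KO libraries, a sum that Ltf, lactoferrin, which mammary epithelium also makes, raised. Of 7 tested neutrophil markers 1 fell and 1 rose (18.3% and 19.1% of all tested genes). They were Cxcr2 (2.29-fold lower, edgeR adjusted p = 0.0475) and Ltf (5.86-fold higher, edgeR adjusted p = 0.000175). Cxcr2 had only 5, 13 and 8 counts in AXL KO replicates 1 to 3. It passed the filter on low counts through its WT libraries, so its call is not support, and it is the 1 that fell. No neutrophil marker fell when replicate 1 or 3 of either group was left out, while 2 fell when WT replicate 2 was left out and 3 when AXL KO replicate 2 was. Camp was at 0 and Ly6g had 1 count. The 7 B cell markers summed to at most 0.957 CPM in a library, and Cd79b, the 1 that could be tested, did not pass the test. These sums are small beside globin, and their part in the globin result was not tested.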

How the data were processed

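Base calling with CASAVA 1.8, TopHat2 2.0.10, HTSeq 0.5.3, DESeq2 1.4.5 and GRCm38 are named in the submitters' processing notes, without their settings. The authors deposited raw counts per gene for each library, and 5 rows that name no gene were left out. The deposited table of their comparison holds a signal per library, which is the count divided by a size factor, log2 fold changes of WT over AXL KO with standard errors, a score (the test statistic) and p-values. It was described and not retested.

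Counts of 6 libraries, grouped by sample title, were filtered with filterByExpr (minimum count 10, minimum total 15), which kept 14850 of 21716 genes with a count. After TMM scaling, the groups were tested with quasi-likelihood fits of edgeR 4.0.16 (R 4.3.3) on group alone, and p-values were adjusted over every tested gene by Benjamini-Hochberg. The biological coefficient of variation was 0.117. Libraries of 1 group differed by more than sampling noise (chi-square per gene 11.1 to 29.6). Ratios were tested with SciPy 1.17.1. The steps were tested on simulated data. The members and lists were chosen with earlier results of these data known. All 6 members are named, with up to 4 called genes of each list by smallest p, genes of each list near 0 counts and the 10 genes of most similar profile; Alas1, Fech, Sptb, Tfrc, Cd163, Pf4, Ppbp, Cd79b and Apex2 were named after their values were seen. Positions came from GENCODE M21 of GRCm38. Same-numbered libraries did not deviate together.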

Additional observations from a re-analysis of the deposited data

How the results depend on the processing

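Over 15 alternatives, all 118 log2 fold changes of the 6 members and of the summed copies that could be computed stayed negative and past the threshold. They ranged from -2.42 to -2.09 for Hba-a1, from -2.16 to -1.81 for Hbb-bs, from -1.29 to -1.06 for Alas2 and from -3.11 to -2.11 for Slc4a1, whose largest adjusted p was 0.0319. With genes kept only above a mean log2 CPM of 2, Hba-a2 and Slc4a1 were not tested, so 4 members were called. At an adjusted p under 0.01, 1464 genes of the whole table were lower and 1610 higher. Of the other red cell lists 9 genes were lower and 6 higher, and 9 endothelial and 0 neutrophil markers were lower. Neutrophil markers called lower also numbered 0 with the DESeq2 Wald test, with that stricter filter and with a replicate block, and platelet markers called lower numbered 0 with that filter. With 1 library left out, the genes lower over the whole table numbered 1733 to 2828, with the low end without AXL KO replicate 3. Genes of the other red cell lists called lower numbered 11 to 16 and those called higher 7 to 10. Without AXL KO replicate 2 they were 16 lower and 9 higher, against 2828 and 2717 over the whole table. Endothelial markers lower numbered 9 to 14, platelet markers lower 1 to 2 and neutrophil markers lower 0 to 3. The cause was not tested, apart from the smaller number of genes under the stricter filter. Same-numbered libraries did not deviate together, with correlations of deviations of -0.06, -0.13 and 0.09, and the replicate block kept all 6 members called. Whether these libraries were paired in the design cannot be told from such correlations. Slc4a1, with 12 counts in the AXL KO libraries together, is limited by depth.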
